A study of Mus musculus with 4 samples.

Results

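Adipose-rich spots of mouse facial skin were described at postoperative day 4 and in a section labelled unwounded. Flash-frozen tissue had been profiled with Visium, which captures transcripts on a grid of barcoded spots under the tissue and counts them by unique molecular identifiers (UMIs). The mice of both groups were wildtype by their labels. The series also holds a day 4 and an unwounded section of oral mucosa, not described here. Each group held 1 section, so no test was possible, no value has a replicate error, and every comparison below sets 1 section against 1 section. The labels give no age, sex, strain, wound size or distance from the wound edge for either section.

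A spot was eligible with at least 1000 UMIs. Spots were chosen by a score, the share of a spot's UMIs in Adipoq, Fabp4, Cfd, Plin1 and Car3. The 60 highest-scoring spots of each facial section were taken, which gave 120 of 1749 eligible facial spots (1096 at day 4 and 653 unwounded). A fixed number was taken from each section, so the number of adipose-rich spots is no result, and the levels of the 5 score genes are given as a description of what was selected. The 60th spot scored 0.608% at day 4, just above the 61st at 0.597%. The 60th spot of the unwounded section scored 0.0648%, next to 0.0647% for the 61st. Of the unwounded spots, 2 reached the score of the 60th day 4 spot, so the same rank marked spots of unlike score. The score is a share of UMIs and not an amount. In UMIs, the 60 day 4 spots held 1940 of the score genes and the 60 unwounded spots 2460. A spot covers several cells, and in such summed RNA fewer fat cells and less RNA per fat cell cannot be told apart.

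White adipocytes store triglyceride in a large lipid droplet coated by perilipins and release fatty acids from it by stepwise lipolysis. They secrete hormones (adipokines), complement factors and acute-phase proteins, and are wrapped in a basement membrane rich in type IV and type VI collagen. In skin they form a layer beneath the reticular dermis, close to striated muscle, that surrounds growing hair follicles and is known to take part in wound repair.

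The day 4 adipose-rich spots held 198617 UMIs, with a median of 2459 per spot (lowest 1029, highest 16361). The unwounded adipose-rich spots held 1105782 UMIs, with a median of 15598 per spot (lowest 1045, highest 49868). The remaining eligible spots had a median of 5920.5 UMIs at day 4 and 16756 unwounded, so the day 4 adipose-rich spots were shallow also within their own section. Mitochondrial transcripts made up 2.13% of UMIs in the day 4 spots and 3.67% in the unwounded ones. The facial sections shared 116 spot barcodes, as the array layout gives (1141 and 671 spots in all), and 1 of these lay in an adipose-rich spot of both. Expression values are counts per 1e+06 UMIs (CPM), summed over the spots named. Their 95% intervals are exact Poisson intervals, and those of log2 ratios are exact conditional intervals for 2 counts; both cover counting error alone.

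Sex-linked transcripts differed between the sections. In the adipose-rich spots Xist, expressed from the inactive X chromosome, had 18 UMIs at day 4 and 0 unwounded. The Y-linked genes Ddx3y, Eif2s3y, Kdm5d and Uty had 0 UMIs at day 4 and 49, 68, 25 and 20 UMIs unwounded. Sex and condition therefore cannot be told apart in any comparison of the sections, and nor can animal and condition.

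On the array, the day 4 adipose-rich spots were scattered in 24 patches of touching spots, of which the largest held 10 and 12 were lone spots. The unwounded adipose-rich spots lay mainly in 2 patches, a larger one of 28 spots (array rows 18 to 22, columns 33 to 60) and a smaller one of 22 spots (rows 63 to 66, columns 108 to 127). The other 10 were lone spots. The patches differed in what else they held: the larger patch was rich in the acute-phase gene Saa3, and the smaller patch held skeletal muscle transcripts. Results are therefore also given for each unwounded patch (619040 UMIs in the larger and 403038 in the smaller), a split made after the data were seen.

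**Figure D1:**
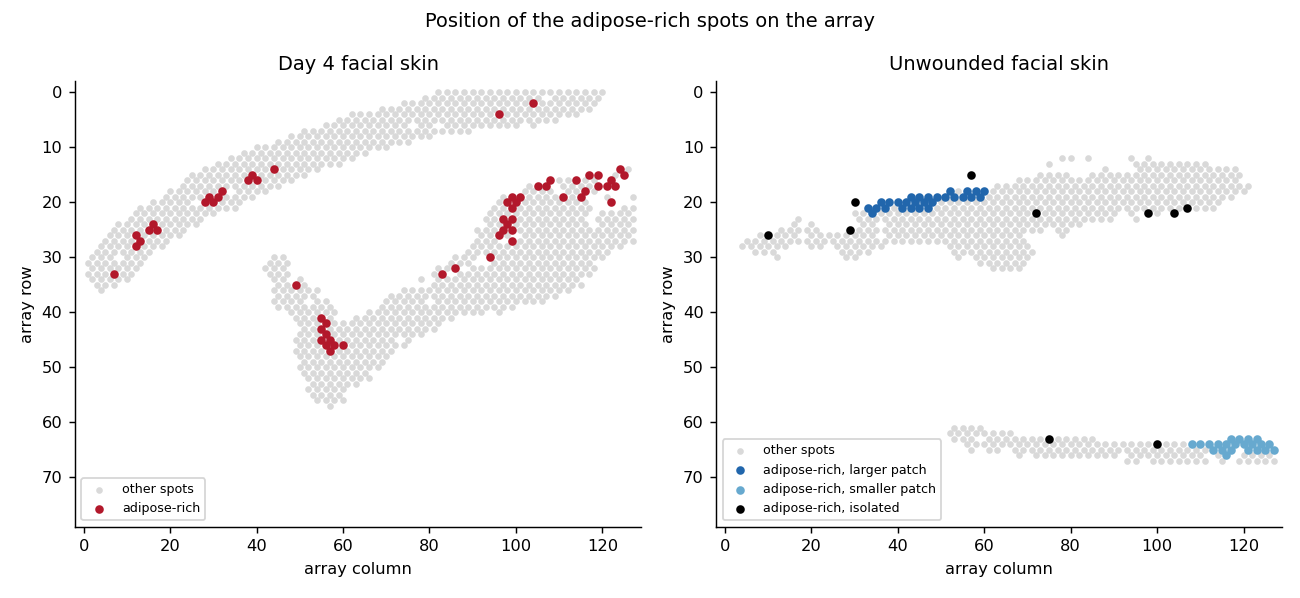
Array positions (column against row, in array units) of all eligible spots in day 4 facial skin (left) and unwounded facial skin (right); coloured points are the adipose-rich spots. The day 4 spots form 24 small patches, and the unwounded ones lie mainly in a patch of 28 and a patch of 22 spots.

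The promoters of 4 genes are shown because the comparison turns on them: Adipoq and Plin1 chose the spots, Nnat was the gene with the greatest ratio of day 4 over unwounded among those named, and Saa3 marked the larger unwounded patch. Each run is 300 bases of RefSeq sequence on GRCm38.p6 in the gene's 5′ to 3′ direction. It reaches from 250 bases before to 50 after the start position used for the gene. For Saa3 that position lies inside the gene span given below, so its run is not at the outer end of that span. Capitals mark TTGCNNAA on either strand (TTNNGCAA on the reverse), a loose form of the site bound by C/EBP factors, which drive adipocyte differentiation and acute-phase genes.
Adipoq, chr16:23146286-23146585, plus strand: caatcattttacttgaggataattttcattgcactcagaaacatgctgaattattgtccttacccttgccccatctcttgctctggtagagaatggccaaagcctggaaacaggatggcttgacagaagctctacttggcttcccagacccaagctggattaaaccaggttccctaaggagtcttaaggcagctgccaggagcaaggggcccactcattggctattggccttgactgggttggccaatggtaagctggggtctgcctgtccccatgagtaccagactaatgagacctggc
Plin1, chr7:79732727-79733026, minus strand: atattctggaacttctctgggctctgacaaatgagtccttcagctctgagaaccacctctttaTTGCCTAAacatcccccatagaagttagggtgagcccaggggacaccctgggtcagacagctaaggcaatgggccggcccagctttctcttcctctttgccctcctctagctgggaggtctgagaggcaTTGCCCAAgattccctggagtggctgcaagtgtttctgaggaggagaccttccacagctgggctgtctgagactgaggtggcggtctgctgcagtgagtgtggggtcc
Saa3, chr7:46715627-46715926, minus strand: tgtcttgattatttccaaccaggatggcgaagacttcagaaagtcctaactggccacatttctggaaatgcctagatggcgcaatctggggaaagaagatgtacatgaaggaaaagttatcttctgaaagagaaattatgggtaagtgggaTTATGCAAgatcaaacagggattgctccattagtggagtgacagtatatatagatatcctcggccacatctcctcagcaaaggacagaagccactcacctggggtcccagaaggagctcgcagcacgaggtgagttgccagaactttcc
Nnat, chr2:157559828-157560127, plus strand: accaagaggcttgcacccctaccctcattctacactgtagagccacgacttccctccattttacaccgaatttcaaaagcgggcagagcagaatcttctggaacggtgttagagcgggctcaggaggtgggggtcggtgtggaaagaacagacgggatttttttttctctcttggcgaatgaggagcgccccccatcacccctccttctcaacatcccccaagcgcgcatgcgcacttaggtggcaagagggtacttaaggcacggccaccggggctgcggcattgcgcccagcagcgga
Plin1 held 2 matches, Saa3 held 1, and Adipoq and Nnat held 0. Of the 32851 promoters of this length in the table, 3547 (10.8%) held at least 1 match. A match is a description of the letters and says nothing about binding in these sections.

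The score genes made up 0.977% of UMIs in the day 4 adipose-rich spots (95% interval 0.934 to 1.02) and 0.222% in the unwounded ones (0.214 to 0.231), a ratio of 4.39. Against the larger and the smaller unwounded patch the ratio was 5.14 and 3.26. The score was lower in the surrounding tissue, at 0.226% in the 142 spots touching a day 4 adipose-rich spot and 0.0338% in the remaining 894. In the unwounded section it was 0.0249% in the 60 touching spots and 0.00680% in the remaining 533.

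Adipoq, the adipocyte hormone adiponectin (chr16:23146536-23157968 on GRCm38.p6), had 509 CPM in the day 4 adipose-rich spots and 64.2 CPM in the unwounded ones. In single spots it ranged from 0 through a median of 448 to 2708 CPM at day 4, and from 0 through a median of 0 to 340 CPM unwounded, so the ranges overlapped. After each spot was thinned to 1000 UMIs, 43.3% of the day 4 adipose-rich spots had an Adipoq UMI (exact binomial 95% interval 30.6 to 56.8), against 10% of the unwounded ones (3.76 to 20.5). Among the other spots the thinned shares were 5.21% at day 4 and 0.337% unwounded. Without thinning, 66.7% of the day 4 and 43.3% of the unwounded adipose-rich spots had an Adipoq UMI. Adipoq helped to choose the spots, at unlike scores in the sections, so these shares describe what was selected. The binomial intervals treat spots of the same section as independent and hold no replicate error, so no difference between sections can be drawn from them.

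Fabp4, a cytosolic fatty acid carrier that capillary endothelium and macrophages also express, had 3816 CPM in the day 4 adipose-rich spots and 914 CPM in the unwounded ones. Cfd, the complement factor adipsin, had 3479 CPM at day 4 and 754 CPM unwounded. Plin1, the droplet coat protein perilipin, had 292 CPM at day 4 and 66.9 CPM unwounded. The mix of the 5 genes also differed. Adipoq supplied 5.21% of score UMIs at day 4 (4.26 to 6.29), 3.99% in the larger unwounded patch (2.95 to 5.27) and 1.82% in the smaller one (1.15 to 2.75), so the day 4 interval overlapped that of the larger patch. Car3, a carbonic anhydrase of both fat and skeletal muscle, supplied 17.1% of the score at day 4, 8.67% in the larger unwounded patch and 29.9% in the smaller one. In CPM, Car3 stood at 1672 at day 4, 165 in the larger patch and 896 in the smaller patch.

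Adipocyte genes that the score did not use bear on the label. The list of 25 other adipocyte identity genes supplied 0.438% of UMIs in the day 4 adipose-rich spots (0.409 to 0.468), against 0.181% in the touching spots and 0.113% in the remaining spots. Of its 18 members with at least 50 UMIs in that comparison, 13 were at least 2-fold higher and 3 at least 2-fold lower than in the other day 4 spots, where 17.8% and 13.8% of the 11406 genes compared were higher and lower. In the unwounded section the list supplied 0.149% in the adipose-rich spots (0.142 to 0.157), against 0.116% in the touching spots and 0.108% in the rest. There 8 of 17 compared members were higher and 3 lower than in the other spots, beside 15.5% and 9.62% of 11810 genes. Several listed genes, such as Cidea and Adig, are also used by sebaceous glands or other lipid-rich skin cells.

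Of all genes, 2034 were at least 2-fold higher and 1579 lower in the day 4 adipose-rich spots than in the other day 4 spots. The corresponding counts in the unwounded section were 1831 and 1136. With TMM scaling, which shifts the ratios of these comparisons by -0.43 log2 at day 4 and -0.23 log2 unwounded, the counts were 937 higher and 2408 lower at day 4 and 1373 higher and 1475 lower unwounded.

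The genes most enriched in the adipose-rich spots of both sections, ranked by the lower of the 2 log2 ratios over other spots (10 CPM added) and leaving out the score genes, included Hp, Retn, Trf, Cidec, Aqp1, Aoc3, Ifi27l2a, Lrg1, Lbp, C3 and Ccl8. Hp encodes haptoglobin, a haemoglobin scavenger made by liver and fat. It had 2527 CPM in the day 4 adipose-rich spots against 110 CPM in the other day 4 spots, and 1552 CPM in the unwounded adipose-rich spots against 81.8 CPM in the other unwounded spots. Retn, the adipokine resistin, had 363 against 19.0 CPM at day 4 and 115 against 4.90 CPM unwounded. Trf encodes the iron carrier transferrin, Aqp1 a water channel of endothelium and fat, and Aoc3 a vascular and adipocyte amine oxidase. Lbp binds bacterial lipopolysaccharide, and Lrg1 is a secreted leucine-rich glycoprotein of acute inflammation and vessels. Lep, the hormone leptin, named after its values were seen, had 4 UMIs in the adipose-rich spots of each section and was too sparse to compare.

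**Figure D2:**
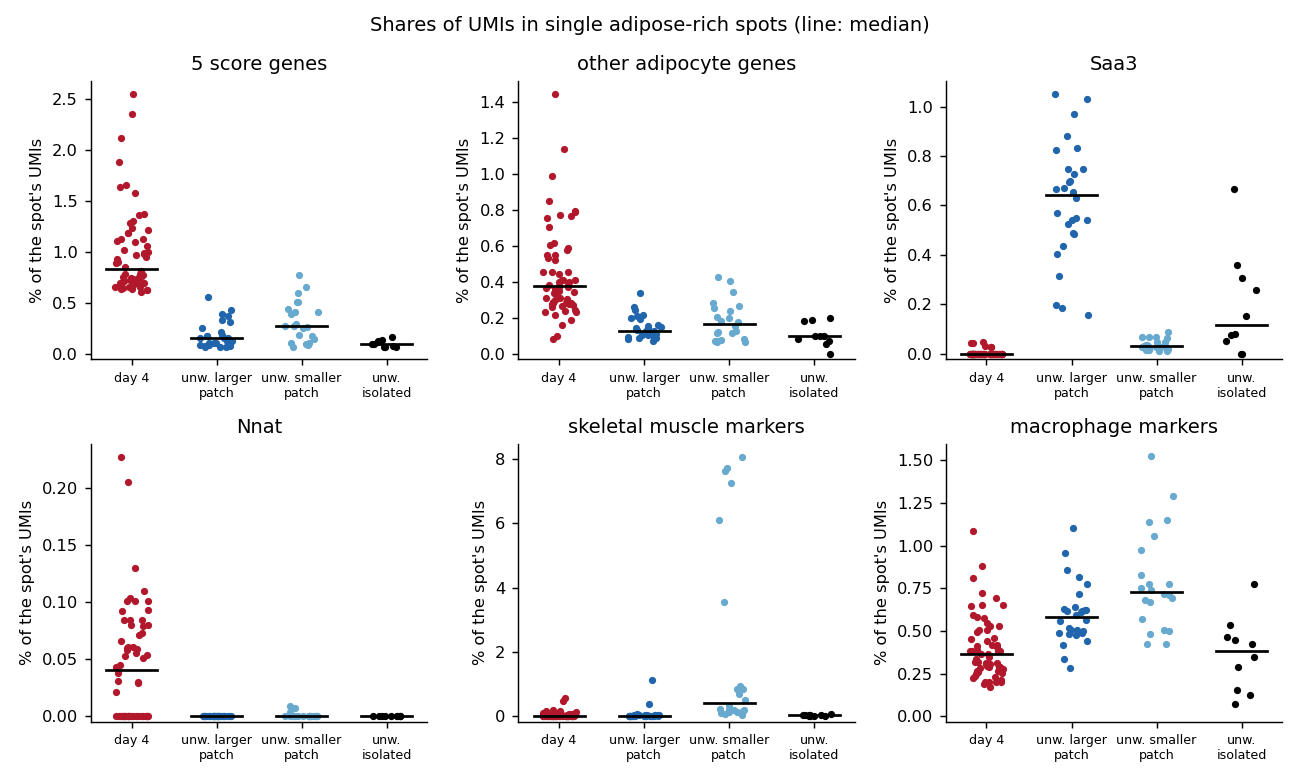
Percent of each spot's UMIs in the 5 score genes, the other adipocyte identity genes, Saa3, Nnat, skeletal muscle markers and macrophage markers, for the adipose-rich spots of day 4 and of the larger patch, smaller patch and isolated spots of the unwounded section; the line is the median. Score genes and Nnat are highest at day 4, Saa3 in the larger patch and muscle markers in the smaller patch.

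Between the sections, 305 of 5520 genes with at least 50 UMIs over both sets of adipose-rich spots were at least 2-fold higher at day 4 (5.53%), and 653 were at least 2-fold lower (11.8%). The minimum was summed over both sets, which held 198617 UMIs at day 4 and 1105782 unwounded. Genes high in the unwounded spots therefore passed it more readily, which favours lower calls. With at least 1 UMI in each set in its place, 1955 were higher and 1383 lower. With an interval of the ratio that excluded 1, 305 were higher and 514 lower. The median log2 ratio over all compared genes was 0.02. TMM scaling turned the split to 199 higher and 780 lower, and median-of-ratios scaling to 186 higher and 809 lower; they shift all ratios of this comparison by -0.14 and -0.16 log2. Limited to the larger unwounded patch, 147 were higher and 352 lower; limited to the smaller patch, 228 and 296. In the other spots, 506 of 12649 genes were higher at day 4 (4%) and 494 lower (3.91%). These shares are the background for the list counts below, several of which rest on few genes.

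Adipocyte identity genes outside the score were mostly higher at day 4 as a share of UMIs. In UMIs, the list of 25 held 870 in the 60 day 4 spots and 1653 in the 60 deeper unwounded spots. Of 15 compared, 11 were at least 2-fold higher and 1 lower, with a median log2 ratio of 1.48 against 0.02 over all genes, and 0.20 for the same list in the other spots. These spots were chosen for a score that was itself 4.39 times higher at day 4, and the adipocyte genes are described beside that. Cidec, which fuses lipid droplets, had 332 CPM at day 4 and 84.1 CPM unwounded (log2 1.98). Lipe, hormone-sensitive lipase, had 222 CPM at day 4 and 62.4 CPM unwounded. Pnpla2, adipose triglyceride lipase, had 272 CPM at day 4 and 76.9 CPM unwounded. The droplet protein gene Plin4 had 191 CPM at day 4 and 59.7 CPM unwounded, and the growth hormone receptor gene Ghr had 227 CPM at day 4 and 69.6 CPM unwounded. Against each unwounded patch the list was higher at day 4, with medians of 1.52 against the larger and 1.40 against the smaller.

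Nnat stood apart from the other adipocyte genes. It is an imprinted gene that encodes the small membrane protein neuronatin, known from brain, pancreatic islets and adipose tissue. The day 4 adipose-rich spots held 97 UMIs (488 CPM), against 3 UMIs (2.71 CPM) in the unwounded ones, a log2 ratio of 7.49 (5.90 to 9.79). By patch it had 0 UMIs in the larger unwounded patch, and 7.44 CPM in the smaller. Of the day 4 adipose-rich spots, 35 of 60 had an Nnat UMI, against 3 of 60 unwounded ones. After thinning the shares were 38.3% and 0%, where a count of 0 allows up to 5.96%. That bound treats spots of the same section as independent and holds no replicate error. In the other spots Nnat had 17.2 CPM at day 4 and 0.647 CPM unwounded. Within the day 4 section it was 4.83 log2 higher in the adipose-rich spots than elsewhere (4.45 to 5.20). On the scale with 10 CPM added its log2 ratio was 5.29, and over 18 alternatives it lay between 4.64 and 7.04.

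A further view gives genes outside the score as UMIs per 1000 score UMIs. The denominator holds transcripts of other cells too, since Fabp4 and Car3 are not made by fat cells alone. Because the score was higher at day 4, a gene with the same CPM in both sections has a log2 ratio of -2.13 on this scale. Of 20 droplet and lipolysis genes, 12 had an interval below 0 and 8 an interval that included 0. Set against -2.13, 6 lay above, 10 included it and 4 lay below.

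The genes above that value included the core droplet and lipase genes. Cidec had 34.0 per 1000 score UMIs at day 4 and 37.8 unwounded (log2 -0.15, -0.63 to 0.32). Lipe and Pnpla2 each had a log2 ratio of -0.31, with intervals of -0.89 to 0.26 and -0.83 to 0.20. Other members of the list were lower: Plin2, a droplet coat protein of many cell types, had 13.9 at day 4 and 95.5 unwounded (log2 -2.78, -3.41 to -2.20). Mgll, monoglyceride lipase, had 35.6 at day 4 and 252 unwounded (log2 -2.82, -3.20 to -2.46). Retn, at 37.1 at day 4 and 51.6 unwounded, had a log2 ratio of -0.48 (-0.91 to -0.05).

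Of 21 lipid synthesis genes, 20 had a UMI, and 16 of these had an interval below 0 on this scale. Set against -2.13, 3 lay above (Acsl1, Agpat2 and Pck1), 13 included it and 4 lay below, among them Scd1 and Acly. Scd1, the stearoyl-CoA desaturase that makes monounsaturated fatty acids, had 175 at day 4 and 1601 unwounded. Fasn, fatty acid synthase, had 28.4 at day 4 and 140 unwounded, with an interval that included -2.13, and Acly, which makes cytosolic acetyl-CoA, had 12.9 at day 4 and 93.9 unwounded. Sebaceous glands and epidermis also use these genes, and Scd1 was higher outside the adipose-rich spots, with 2666 CPM in the other day 4 spots and 4219 CPM in the other unwounded spots. The sebaceous marker list supplied 0.0745% of UMIs in the day 4 adipose-rich spots and 0.130% in the unwounded ones, with 9 and 12 of its 13 genes detected. The part of sebaceous transcripts in these values was not tested.

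**Figure D3:**
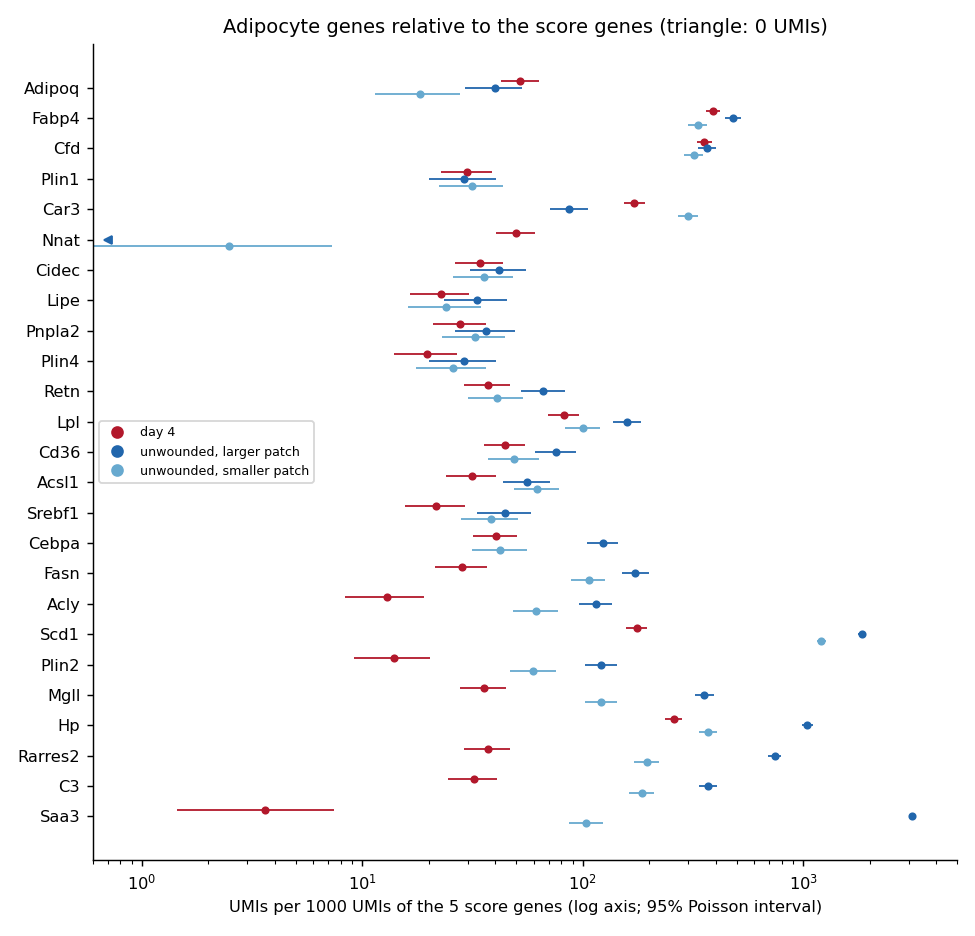
UMIs of 25 adipocyte and secreted-factor genes per 1000 UMIs of the 5 score genes (log axis) in the day 4 adipose-rich spots and the larger and smaller unwounded patches; bars are 95% Poisson intervals and a triangle marks 0 UMIs. Cidec, Lipe and Pnpla2 have overlapping intervals in the 3 sets, Nnat is high only at day 4 and Saa3 differs by orders of magnitude.

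In CPM, the list of fatty acid and triglyceride synthesis genes had 3 of 17 higher and 1 lower at day 4, with a median of -0.17. Over all compared genes, 5.53% were higher and 11.8% lower. The higher genes were Agpat2, an acyltransferase of triglyceride assembly, Acsl1, an acyl-CoA synthetase, and Pck1, a glyceroneogenesis enzyme. Scd1 was the lower gene, with 1712 CPM at day 4 and 3561 CPM unwounded (log2 -1.06, -1.22 to -0.90). Among lipid uptake genes, 3 of 13 were higher (Lpl, Cd36 and Cav1) and 1 lower (Fabp5, the epidermal fatty acid binding protein). Lpl, lipoprotein lipase, had 801 CPM at day 4 and 287 CPM unwounded, while in the other spots it had 108 CPM in each section. Cd36, a fatty acid transporter, had 433 CPM at day 4 and 148 CPM unwounded. It had 88.8 CPM in the other day 4 spots and 144 CPM in the other unwounded spots.

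Lipid droplet and lipolysis genes split as 5 higher and 2 lower of 13, with a median of 0.30 (-0.64 to 1.43 over the alternatives). Hsd11b1, which regenerates active glucocorticoid, had 1 UMI at day 4 and 67 UMIs unwounded (log2 -3.59, -8.91 to -1.06). Insulin and glucose handling genes had 2 of 8 higher, Pik3r1 and Pfkfb3, and 1 lower, the glucose transporter gene Slc2a1 with 3 UMIs at day 4 and 69 unwounded. None of 14 oxidative phosphorylation genes differed 2-fold in either direction (median 0.06). Of 11 beta oxidation and thermogenic genes, 0 were higher and 2 lower, Cox8b and Elovl3, which are also muscle and sebaceous genes. These counts stand beside 5.53% higher and 11.8% lower over all compared genes. Ucp1, the uncoupling protein of brown fat, had 0 UMIs in the adipose-rich spots of each section, below the floor of 3 UMIs (15.1 CPM at day 4 and 2.71 CPM unwounded).

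Among 6 adipocyte transcription factor genes compared, Cebpa and Srebf1 were higher and Cebpb and Cebpd lower. Cebpa, which maintains the mature adipocyte, had 393 CPM at day 4 and 196 CPM unwounded (95% interval of the log2 ratio 0.61 to 1.38). It was just at 2-fold, and the shift of -0.14 log2 with TMM scaling takes it below. Per 1000 score UMIs Cebpa had a log2 ratio of -1.13 (-1.53 to -0.75), where equal CPM gives -2.13. Cebpd, an early differentiation and inflammation factor, had 35.2 CPM at day 4 and 120 CPM unwounded (log2 -1.77, -3.11 to -0.69). Cebpb had 237 CPM at day 4 and 502 CPM unwounded. All 4 genes are also transcribed in keratinocytes or immune cells. Pparg, the master regulator of fat cells, had 5 UMIs at day 4 and 16 unwounded, too few to compare.

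Of 14 compared adipokine and secreted factor genes, 2 were higher at day 4 (Retn and Agt) and 5 lower (among them Saa3, Lcn2, Cfb and Rarres2), with a median of -0.71 (-2.04 to 0.037 over the alternatives). Saa3, serum amyloid A of inflamed fat and macrophages (chr7:46711998-46719615), had 35.2 CPM in the day 4 adipose-rich spots and 3574 CPM in the unwounded ones (log2 -6.66, -7.98 to -5.62). Of the day 4 spots, 6 of 60 had a Saa3 UMI and the highest held 480 CPM. Of the unwounded spots, 58 of 60 had one, with a median of 1906 and a highest value of 10516 CPM. The unwounded patches differed 19.0-fold: the larger patch had 5901 CPM and the smaller 310 CPM. Saa3 in the day 4 spots was 3.14 log2 below even the smaller patch. In the other spots it had 31.1 CPM at day 4 and 805 CPM unwounded.

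Lcn2, the iron-binding protein lipocalin, had 45.3 CPM at day 4 and 317 CPM unwounded, of which the larger patch had 480 and the smaller 99.2 CPM. Cfb, complement factor B, had 95.7 CPM at day 4 and 433 CPM unwounded. Rarres2, the chemoattractant chemerin, had 363 CPM at day 4 and 1054 CPM unwounded. C3, the central complement protein, had 312 CPM at day 4 and 624 CPM unwounded. Over the complement list, 2 of 14 genes were higher at day 4 (Cfd, a score gene, and Cd55) and 4 lower (Cfb, C1qa, C1qb and C1qc). Within each section, 14 of 15 were at least 2-fold higher in the adipose-rich than in the other spots. In those comparisons 17.8% of all genes were higher at day 4 and 15.5% unwounded. The 14 include Cfd, which helped to choose the spots.

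**Figure D4:**
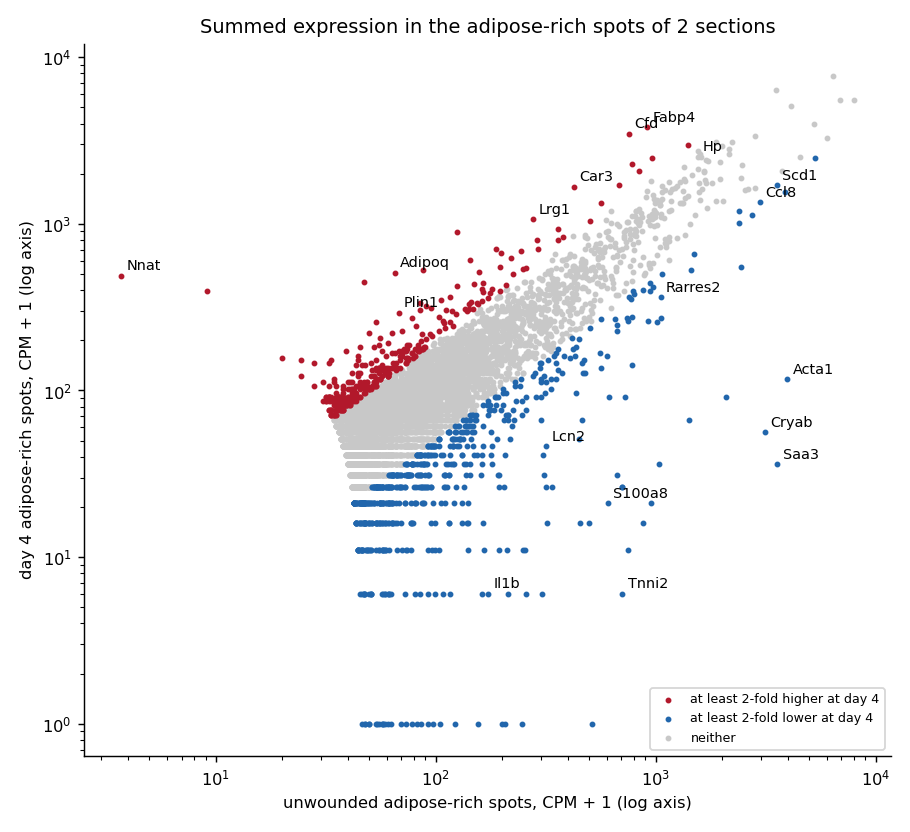
Summed expression (CPM + 1, both axes logarithmic) of the 5520 compared genes, day 4 adipose-rich spots against unwounded ones; red genes are at least 2-fold higher and blue genes at least 2-fold lower at day 4. Score genes and Nnat lie above the cloud, and Saa3, S100a8 and muscle genes lie far below it.

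The section labelled unwounded held more neutrophil and cytokine transcripts than the day 4 section. Neutrophil markers supplied 0.00856% of UMIs in the day 4 adipose-rich spots, with 6 of 12 genes detected, and 0.148% in the unwounded ones, with 10 of 12 detected (Ly6g and Ngp were at 0 in both). In the remaining spots away from the adipose-rich ones the shares were 0.0269% at day 4 and 0.709% unwounded. All 4 compared neutrophil genes were lower at day 4 (median -3.02), but genes high in the deeper unwounded set reached the UMI minimum more readily. S100a8, a calprotectin subunit that stressed keratinocytes also make, had 20.1 CPM at day 4 and 607 CPM unwounded. The part of these cells in the secreted-factor values was not tested.

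All 10 compared cytokine and chemokine genes were lower in the day 4 adipose-rich spots (median -2.36), and 16 of 19 were lower in the other spots (median -1.11). In the adipose-rich spots 10 of 19 listed genes reached the UMI minimum, which genes high in the deeper unwounded set reach more readily. All 19 together supplied 0.162% of UMIs in the day 4 adipose-rich spots (0.144 to 0.180) and 0.496% in the unwounded ones (0.483 to 0.509). Il1b had 1 UMI at day 4 and 191 unwounded (log2 -5.10, -10.41 to -2.61). Cxcl2, a neutrophil attractant, had 0 UMIs at day 4 and 94 unwounded. Ccl8, a chemokine of resident macrophages, had 1349 CPM at day 4 and 2992 CPM unwounded. It was nonetheless 2.33 log2 higher in the day 4 adipose-rich spots than in the other day 4 spots (2.14 to 2.51). The unwounded counterpart was 2.24 (2.18 to 2.30).

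Macrophage and monocyte markers supplied 0.385% of UMIs in the day 4 adipose-rich spots (0.358 to 0.413) and 0.668% in the unwounded ones (0.653 to 0.683), with all 16 genes detected in each. Of 14 compared, 7 were lower at day 4 and 0 higher (median -0.94), while in the other spots 2 of 16 were higher and 1 lower (median 0.01). C1qa, a complement component of tissue macrophages, had 378 CPM at day 4 and 798 CPM unwounded. Cd68, a lysosomal macrophage protein, had 70.5 CPM at day 4 and 207 CPM unwounded. Mrc1, the mannose receptor of resident macrophages, had 514 CPM at day 4 and 788 CPM unwounded, short of 2-fold. Of 14 lipid-associated macrophage genes, Lpl and Cd36 were higher and Fabp5 and Spp1 lower. Antigen presentation genes had 3 of 5 lower (H2-Ab1, Cd74 and Cd209a), beside 11.8% of all compared genes. Interferon-stimulated genes had 4 of 10 lower (Irf7, Oasl2, Ifit3 and Isg15), against 2 higher and 1 lower of 13 in the other spots.

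Mast cell proteases were higher at day 4. All 4 compared mast cell genes were higher in the day 4 adipose-rich spots, with a median of 1.69. Cma1, a chymase, had 322 CPM at day 4 and 89.5 CPM unwounded, and Cpa3, a carboxypeptidase, had 151 CPM at day 4 and 32.6 CPM unwounded. The day 4 values came from few spots: 20 of 60 held Cma1, with a highest value of 3390 CPM. Without the day 4 spots at the larger array row numbers, which keeps 26 of 60, the list median was -0.21 and Cma1 was at -0.25 log2.

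Skeletal muscle transcripts set the smaller unwounded patch apart. All 13 muscle markers were lower in the day 4 adipose-rich spots (median -4.34), and 12 of 13 were higher at day 4 in the other spots (median 1.67). The markers supplied 0.0458% of UMIs in the day 4 adipose-rich spots and 0.115% in the other day 4 spots. The unwounded shares were 1.27% and 0.0228%. Muscle-bearing unwounded spots that the score chose were thereby missing from the other unwounded spots. The opposite signs are therefore no measure of a change across the whole section. The markers supplied 0.0767% in the larger unwounded patch and 3.36% in the smaller one, and 7 unwounded spots held at least 1% against 0 at day 4. Acta1, skeletal alpha actin, had 116 CPM at day 4, 208 CPM in the larger patch and 10559.8 CPM in the smaller patch. Tnni2, fast troponin I, had 5.03 CPM at day 4, 43.6 CPM in the larger patch and 1861 CPM in the smaller patch. The lowest genes at day 4 beside Saa3 were of this kind: Tnni2, Tnnt3, Acta1, Myl1, Xirp2, Cryab, Csrp3, Mustn1, Nrap, Mybpc1 and Hspb7. Set against the larger patch alone, the muscle list had a median of -0.34.

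The smaller patch also had the higher Car3 level, and its mitochondrial share was 6.99%, against 1.69% in the larger patch. The part of muscle in the Car3 score of that patch was not tested. With a score from Cidec, Lipe, Plin4, Pnpla2 and Adig in its place, 30 of the 60 day 4 spots and 21 of the 60 unwounded spots were chosen again, and the muscle median was -0.17. The other adipocyte list, which holds these 5 genes, then had a median of 0.70.

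The surrounding matrix differed gene by gene. Of 16 genes for the basement membrane around fat cells, 5 were higher at day 4 and 0 lower (median 0.42). Over all compared genes, 5.53% were higher and 11.8% lower. Col6a3, a collagen VI chain, had 2487 CPM at day 4 and 961 CPM unwounded (log2 1.37, 1.21 to 1.53). Col15a1 had 312 CPM at day 4 and 94.1 CPM unwounded, and Lama2, a laminin chain of fat and muscle, had 141 CPM at day 4 and 47.0 CPM unwounded. In the other spots 6 of the 16 were higher (median 0.65), beside 4% of all genes compared there. Within each section the list was higher in the adipose-rich than in the other spots, for 15 of 16 genes at day 4 and 16 of 16 unwounded. The shares of all genes higher in those comparisons were 17.8% at day 4 and 15.5% unwounded.

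Fibrillar collagen and crosslinking genes had 0 of 13 higher and 3 lower (Lox, Loxl1 and Loxl2), whereas 7 of 16 were higher in the other spots. Over all compared genes, 5.53% were higher and 11.8% lower in the adipose-rich spots. The shares in the other spots were 4% and 3.91%. Lox, lysyl oxidase, had 131 CPM at day 4 and 361 CPM unwounded. Col1a1 had 7678 CPM at day 4 and 6382 CPM unwounded, and Col3a1 had 5569 CPM at day 4 and 6900 CPM unwounded. Of 13 fibroblast markers, 3 were lower at day 4 and 0 higher, but 3 were higher and 0 lower in the other spots. Pi16, of the fascial and adventitial progenitor, had 247 CPM at day 4 and 665 CPM unwounded. Adipose progenitor genes as a list had 2 of 13 higher (Igfbp4 and Cd55) and 2 lower (Pi16 and Cxcl14).

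Provisional matrix and matricellular genes had 2 of 13 higher and 8 lower, with a median of -1.23. Postn, the matricellular protein periostin, had 1329 CPM at day 4 and 563 CPM unwounded, and Cthrc1 had 151 CPM at day 4 and 52.5 CPM unwounded. Tnc, tenascin C, had 151 CPM at day 4 and 474 CPM unwounded; the larger patch had 711 CPM and the smaller patch 156 CPM. Timp1 followed the same layout, with 90.6 CPM at day 4, 444 CPM in the larger patch and 96.8 CPM in the smaller. Against the smaller patch alone the list median was -0.02. Mmp3 and Mmp19 were lower at day 4, and Timp3, a matrix-bound inhibitor, was higher.

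**Figure D5:**
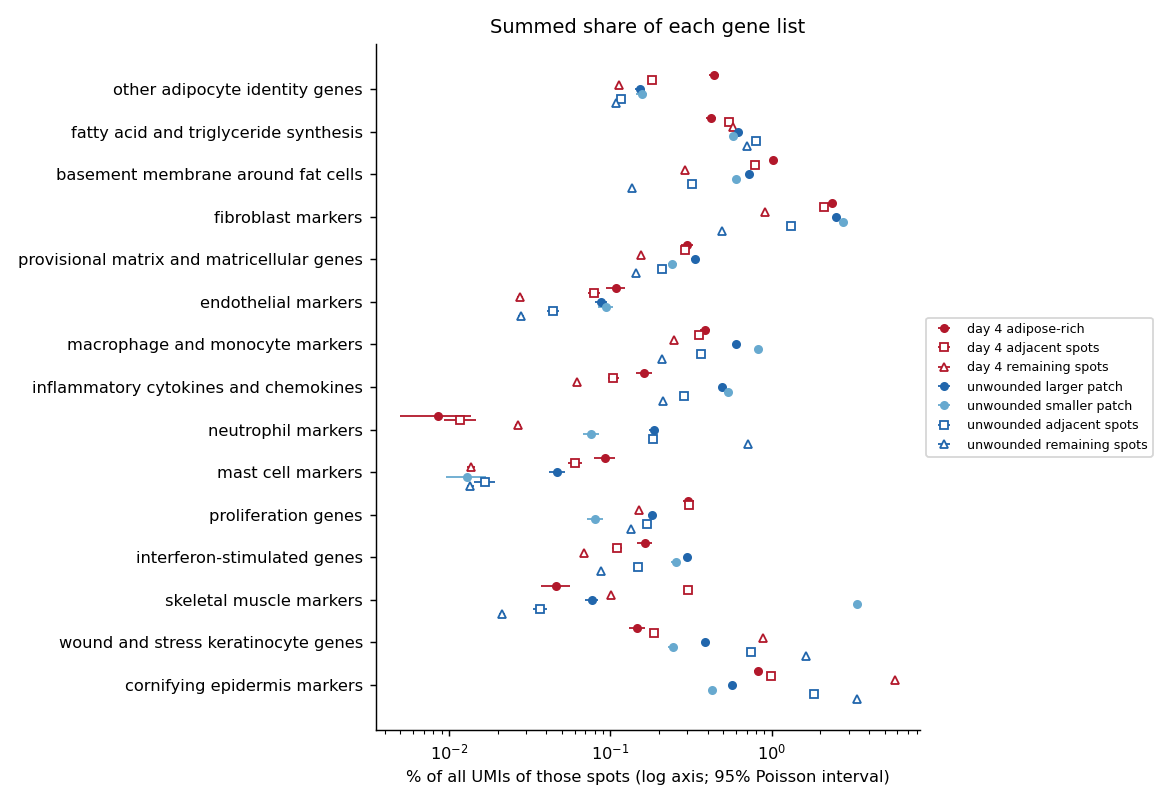
Share of all UMIs (percent, log axis, with 95% Poisson intervals) of 15 gene lists in the adipose-rich spots, the spots touching them and the remaining spots of day 4 and unwounded facial skin. Neutrophil markers are lower in each set of day 4 spots than in each set of unwounded spots, and skeletal muscle markers reach 3.36% in the smaller unwounded patch.

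None of 8 compared endothelial genes differed 2-fold between the sections (median 0.13), and the 14 markers supplied 0.108% of UMIs at day 4 and 0.0905% unwounded. Within the sections, 14 of 14 endothelial genes were higher in the adipose-rich than in the other spots at day 4, and 12 of 14 unwounded. Over all genes in those comparisons, 17.8% were higher at day 4 and 15.5% unwounded. The score included Fabp4, which endothelium also expresses, and its part in these counts was not tested. Sox18, a transcription factor of endothelium and hair follicle dermis, had 257 CPM at day 4 and 52.5 CPM unwounded. Pericyte genes had 1 of 8 higher (Mcam) and 1 lower (Des, which muscle also uses). Haemoglobin genes were higher at day 4 (3 of 3 compared, median 2.75). In the other spots 5 of 5 erythrocyte genes were higher, the haemoglobin genes and Alas2.

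Of 14 proliferation genes, 5 were higher at day 4 (Cdk1, Ccna2, Pcna, Stmn1 and Hmgb2) and 0 lower (median 0.69), with 0 of 15 in either direction in the other spots. The list supplied 0.304% of UMIs in the day 4 adipose-rich spots and 0.309% in the spots touching them, against 0.141% in the unwounded adipose-rich spots and 0.168% in those touching them. Pcna, the replication clamp, had 438 CPM at day 4 and 163 CPM unwounded. Mki67 had 90.6 CPM at day 4 and 107 CPM unwounded. Hair follicle genes differed too: 3 of 4 were higher at day 4 (Krt25, Krt71 and Lhx2), and all 3 were lowest in the smaller unwounded patch. Krt25 had 131 CPM at day 4, 85.6 CPM in the larger patch and 4.96 CPM in the smaller. Without the unwounded spots at smaller row numbers these 3 genes had too few UMIs to be compared, and the list median was -0.54. The part of follicle cells in the proliferation values was not tested.

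Epidermal transcripts were present in the adipose-rich spots. Cornifying epidermis markers supplied 0.819% of UMIs in the day 4 adipose-rich spots and 0.589% in the unwounded ones, against 5.82% and 3.35% in the remaining spots of day 4 and unwounded skin. In the unwounded adipose-rich spots this share was above the 0.222% of the score genes, and 1 spot held 11.1%. Wound and stress keratinocyte genes had 6 of 8 lower at day 4 (median -1.47) and 7 of 13 lower in the other spots. Krt16, a stress keratin, had 257 CPM at day 4 and 1019 CPM unwounded. Immediate early genes had 6 of 12 lower, among them Fos with 2 UMIs at day 4 and 274 unwounded, and 10 of 18 were lower in the other spots.

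Gas6, the ligand named in the title of the study, and its TAM receptors were also measured. Gas6 had 831 CPM in the day 4 adipose-rich spots and 475 CPM in the unwounded ones (log2 0.81, 0.55 to 1.06), and in the other spots 203 CPM at day 4 and 147 CPM unwounded. The receptor gene Axl had 85.6 CPM at day 4 and 130 CPM unwounded, with an interval that included 0 (-1.42 to 0.12). The ligand gene Pros1 had 111 CPM at day 4 and 165 CPM unwounded. None of the 3 compared genes differed 2-fold between the sections.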

How the data were processed

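The files hold UMI counts per gene and spot with array positions, deposited as made by Space Ranger 1.3.1, per the file headers; Seurat and the mm10 build are named in the submitters' processing notes. Depth per section was 9934290 UMIs over 1141 spots at day 4 and 11939479 over 671 unwounded, for 32285 genes. Counts were not filtered further beyond the minimum of 1000 UMIs per spot. UMIs were summed over spots and divided by the total. A gene was compared with at least 50 UMIs over both groups and counted when it differed at least 2-fold. List medians, alternatives and rankings are of log2(CPM + 10); other log2 ratios have no CPM added. A count of 0 was bounded by 3 UMIs per group. With 1 section per group there was no test. Named genes were the score genes, up to 4 per list by size of the log2 ratio, the 12 highest and 12 lowest with at least 100 UMIs and the same sign in spot means (mitochondrial, haemoglobin, sex-linked and unnamed genes left out), the 12 most enriched in both sections, and 5 sex-linked genes; others in the text are list members quoted for context. The 588 genes of 46 lists (587 matched) and the spots were chosen with earlier results of these data known. No doublet caller was run. Summing and ratios were tested on simulated data. Python 3.11.15, scipy 1.17.1 and edgeR 4.0.16 (TMM factors only) were used, and promoters came from RefSeq (GRCm38.p6), which held 3 of the 5 score genes. A few genes named by the rule are not reported here.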

Additional observations from a re-analysis of the deposited data

Results flagged for a closer look

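Several genes differed in opposite directions in the adipose-rich and the other spots, with counting intervals that excluded 0 on both sides. With 1 section per group these differences were not tested. Spots that the score chose are missing from the other spots of their section. Opposite signs thus depend on that split and are no measure of a change across the whole section. Values are log2 of day 4 over unwounded with 10 CPM added, for adipose-rich spots against other spots. Among muscle genes, Tnni2 was at -5.57 against 1.59, Tnnt3 at -5.14 against 2.03, Acta1 at -4.99 against 2.15 and Myl1 at -4.53 against 1.6. Nrap was at -4.68 against 0.48, Mybpc1 at -4.43 against 0.99, Hspb7 at -4.39 against 0.3 and Des at -4.34 against 1.38. Cox8b was at -2.65 against 1.46. The fibroblast gene Mfap5 was at -1.08 against 1.31.

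Some of the muscle genes also differed in direction when adipose-rich spots were set over the other spots of their own section, likewise not tested. Tnni2 was at -2.19 at day 4 and 4.96 unwounded, and Tnnt3 at -2 at day 4 and 5.17 unwounded. Acta1 was at -1.36 at day 4 and 5.77 unwounded, and Myl1 at -0.99 at day 4 and 5.13 unwounded. Muscle markers supplied 3.36% of UMIs in the smaller unwounded patch and 0.0767% in the larger.

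Spots too shallow to be eligible also carried fat transcripts. The 5 score genes made up 0.301% of UMIs (0.241 to 0.372) in 45 day 4 spots under 1000 UMIs, and 0.0187% (0.00227 to 0.0677) in 18 such unwounded spots.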

How the results depend on the processing

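Of 24 alternatives, 4 were chosen after seeing the data (each unwounded patch alone, 2-fold calls with an interval excluding 1, and no touching spots). The other adipocyte list stayed between 0.70 and 2.20, Nnat between 4.64 and 7.04 and Saa3 between -7.08 and -2.82. Col6a3 stayed between 1.01 and 1.85 and macrophage markers between -1.18 and -0.46. The score gene Adipoq lay between 2.33 and 3.14. Most alternatives chose spots by a score that held Adipoq, so its range describes the spots selected. Of 12 list medians of at least 1 in size, 3 changed sign in some alternative, and so did 20 of 32 under 1, among them immediate early (-0.88, up to 0.45) and myofibroblast genes (-0.79, up to 0.42). For the genes counted as differing and the larger medians, each turn is given next; the causes were not tested except where stated. Directions turned with the score from 5 other adipocyte genes for Cd36 (-0.62), Mfap5 (0.030), Tpm2 (0.58) and Tpm1 (0.57). Tpm2 also turned without spots of at least 1% muscle markers (0.12), without the unwounded spots at larger row numbers (0.090) and with the larger patch alone (0.14). Pfkfb3 turned with a higher UMI minimum per spot (-0.0020), the provisional matrix list after thinning (0.62) and the hair follicle list without the unwounded spots at smaller row numbers (-0.54), where Krt25, Krt71 and Lhx2 were not compared. Mast cell markers (-0.21), Cma1 (-0.25) and Mcpt4 (-0.17) turned without the day 4 spots at larger row numbers.

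Counts of genes higher and lower at day 4 in adipose-rich spots (305 and 653) became 937 and 1191 at 1.5-fold, 161 and 430 with 30 spots, 47 and 152 at a minimum of 200 UMIs, 1955 and 1383 with no minimum, 29 and 43 after thinning, 147 and 352 against the larger patch, and 142 and 332 without the unwounded spots at larger row numbers. The higher count became 199 with TMM, 186 with median-of-ratios and 477 without the day 4 spots at larger row numbers. The lower count became 296 against the smaller patch and 340 without the unwounded spots at smaller row numbers. Day 4 adipose-rich against other spots (2034 and 1579) gave 937 and 2408 with TMM, 847 and 955 at 200 UMIs and 330 and 733 after thinning. The higher count there was 3890 at 1.5-fold, 3419 with no minimum, 1193 by spot means and 989 with median-of-ratios, and the lower was 649 with the interval and 2881 without the spots at larger row numbers. Unwounded adipose-rich against other spots (1831 and 1136) gave 3088 and 1908 at 1.5-fold, 230 and 507 after thinning and 790 and 658 with the 5 other genes. The higher count there was 858 at 200 UMIs and 3705 with no minimum, and the lower was 2208 with the smaller patch alone. No paired analysis was possible because each group held 1 section with no replicate number. Depth limits day 4: 3 UMIs there equal 15.1 CPM, against 2.71 CPM unwounded.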
